A study of Mus musculus with 6 samples.

Results

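The genes described here encode the microtubule and growth cone machinery of young neurons. They are *Tubb3*, *Dcx*, *Map2*, *Mapt*, *Map1b*, *Gap43*, *Stmn2*, *Stmn3*, *Dpysl3* and *Ncam1*, a list of 10 names that were looked up among 53378 genes with a value in every library. All 10 were found, each as 1 row. The list was drawn up by function and not by the values of these genes, although results of these libraries were known when it was made. The libraries come from neural stem cells (NSCs) of embryonic mouse cortex (E14.5), and every culture, controls included, was *Tbl1xr1* flox/flox. The 3 control libraries (replicates 1, 1_1 and 2) are from NSCs infected with a GFP virus, and the 3 libraries labelled Cre (replicates 2, 2_2 and 3) are from NSCs infected with Cre to delete the floxed exon. According to the paper the viruses were lentiviral, carried Cre-GFP or GFP only, and GFP+ cells were sorted. The promoter that drives Cre, the embryo of origin of each culture, and whether replicates with like numbers share a culture are not given in the sources used here. The p-values therefore measure the spread between these libraries, which may be technical.

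Neurons build axons and dendrites on bundles of microtubules, hollow polymers of alpha and beta tubulin. Microtubule-associated proteins (MAPs) such as MAP2, TAU, MAP1B and DCX stabilize these polymers, while stathmins bind free tubulin and favor disassembly. At the tip of a growing neurite, the growth cone senses its surroundings through adhesion molecules such as NCAM1 and remodels its membrane and cytoskeleton with GAP43 and the collapsin response mediators. Several of these proteins, TUBB3 (the antigen of the TUJ1 antibody) and DCX among them, are widely used as markers of young neurons.

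Values are normalized counts, which are the reads of a gene divided by 1 size factor per library. The libraries held 7510615 to 14828100 reads on genes, and the deepest library of each group was control replicate 1 (11161497 reads) and replicate 2 labelled Cre (14828100 reads). The mRNA of the targeted gene *Tbl1xr1* was not lower where Cre was labelled (log2 fold change 0.45, SE 0.14, adjusted p = 0.06 by limma). It had 2522, 2190 and 2721 normalized counts in control replicates 1, 1_1 and 2. In replicates 2, 2_2 and 3 labelled Cre it had 3774, 3463 and 2905. These groups did not overlap, and the higher values were those with the Cre label, as for 14.7% of all tested genes. The groups are named by their labels throughout. A count over the whole gene does not measure the floxed exon on its own. The study checked its NSCs by genotyping, RT-qPCR and Western blot, and reports *Tbl1xr1* mRNA and protein as absent. Those assays were not analysed here, and the counts over the whole gene do not show such a loss. All 10 listed NSC markers passed the filter on low counts, and *Sox2* had at least 5359 normalized counts in every library. In bulk RNA, fewer cells of a type and less RNA per cell cannot be told apart.

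The genes covered a wide range of levels. *Map2* and *Gap43* averaged 9875 and 6954 normalized counts, *Tubb3* 68.2 and *Dcx* 6.33, and *Stmn2* was listed at 0. Of the 10 genes, 8 averaged 10 or more normalized counts over the libraries and could be tested, and 1 of them changed. This was *Gap43*, which fell to 0.597 of its control level. At an adjusted p-value under 0.05 (limma on log2(normalized count + 1), Benjamini-Hochberg over all 14840 tested genes) 9.96% of all tested genes were called, and 5.22% were called as lower, so 1 of 8 genes is close to this background. None of the 8 was called as higher by limma, edgeR or DESeq2 (0 each). At an unadjusted p under 0.05 in limma, 3 of the 8 were called (1 higher, 2 lower), beside 25.5% of all tested genes. edgeR and DESeq2 on the recovered reads each called 1 of the 8, beside 9.99% and 11.8% of all tested genes. The groups did not overlap for 2 of the 8, *Gap43* (lower) and *Map2* (higher), beside 30.3% of all tested genes. The median log2 fold change, labelled Cre minus control, was 0.14 for the 8 genes and -0.001 for all tested genes.

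**Figure D1:**
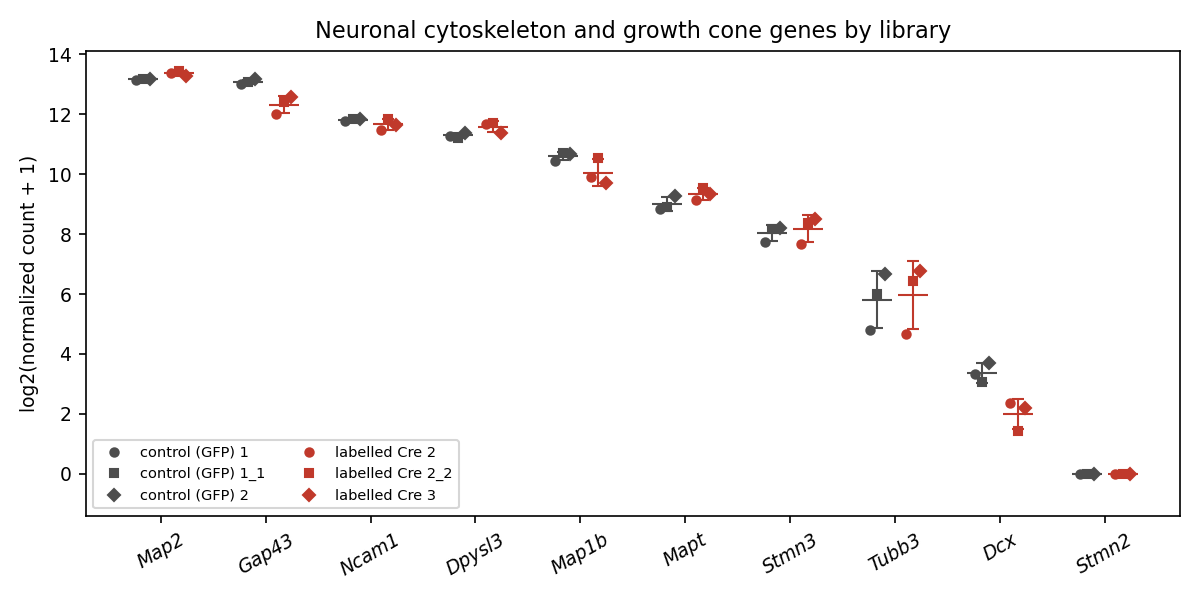
Normalized counts of the 10 genes in each library, as log2(normalized count + 1), with the control libraries in grey and the libraries labelled Cre in red, each symbol 1 library and bars giving the mean and SD of 3 libraries. *Gap43* is lower in every library labelled Cre, *Tubb3* spreads widely in both groups, and *Stmn2* lies at 0 in all 6 libraries.

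Levels of different genes were compared per kilobase of exon, the summed length of the non-overlapping exons of a gene in the GENCODE M1 annotation. In the control libraries *Gap43* was highest, with 5720 ± 288 (SD, n = 3) normalized counts per kb, above 99.3% of all tested genes over the 6 libraries. *Map2* followed with 560 ± 5.79, then *Dpysl3* with 401 ± 25.6, *Ncam1* with 356 ± 9.90, and *Stmn3* with 229 ± 40.5 normalized counts per kb. Below these came *Map1b* with 129 ± 12.8, *Mapt* with 68.3 ± 11.2, *Tubb3* with 33.8 ± 19.6 and *Dcx* with 0.751 ± 0.187 normalized counts per kb. No pair of neighbors in this order overlapped between control libraries. The genes kept the same order in the libraries labelled Cre, where *Gap43* had 3412 ± 663 and *Map2* 641 ± 38.1 normalized counts per kb. There the ranges of *Ncam1* and *Stmn3* overlapped, as did those of *Map1b* (90.6 ± 29.4) and *Mapt* (86.3 ± 12). *Tubb3* therefore stood below 7 of the other genes of this list in both groups, and its level was above that of only 36.0% of tested genes. The exon length counts every annotated exon, so it understates the level of a gene such as *Map2* that uses only some of them in a transcript.

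**Figure D2:**
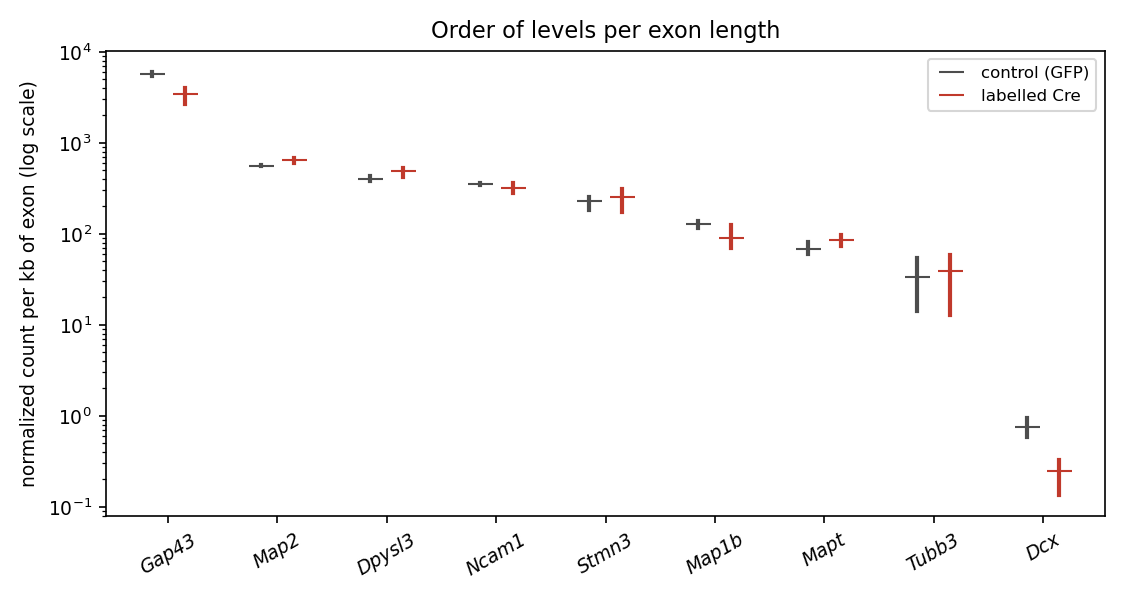
Levels of 9 of the genes per kilobase of exon on a log axis, in control (grey) and labelled Cre (red), with horizontal ticks at the mean of 3 libraries and vertical bars from the lowest to the highest library. *Stmn2*, listed at 0, cannot be drawn on this axis, and *Dcx* lies far below the other genes in both groups.

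*Gap43* (ENSMUSG00000047261) lies on chromosome 16 of GRCm38.p6 from 42248552 to 42340651 and encodes a membrane-bound protein of the growth cone. It had 8287, 8685 and 9162 normalized counts in the control libraries (1, 1_1 and 2), against 4095, 5414 and 6079.6 in replicates 2, 2_2 and 3 labelled Cre. Every library labelled Cre was below every control library, as for 15.5% of all tested genes, and all 6 values rest on at least 5913 reads. The mean was 8711 ± 438 (SD, n = 3) in control against 5196 ± 1010.1 (SD, n = 3) with Cre labelled, a decrease of 40.3% that exceeded the spread within either group. The log2 fold change was -0.76 (SE, its standard error, 0.15, 95% interval -1.09 to -0.43, limma adjusted p = 0.00975). edgeR on the recovered reads gave -0.75 (adjusted p = 0.0107) and DESeq2 -0.74 (adjusted p = 0.000221). Without control replicate 2 the log2 fold change was -0.73 and the limma adjusted p was 0.0572, so the call was lost when that library was left out. Even so, *Gap43* remained the gene of the list with the most normalized counts per kb in both groups.

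The genes for microtubule-associated proteins did not move as a group. *Map2* (chromosome 1, 66175202 to 66442583), whose product is best known from dendrites, had 9124, 9312 and 9194 normalized counts in the control libraries (1, 1_1 and 2), against 10565, 11155 and 9903 in replicates 2, 2_2 and 3 labelled Cre. All control libraries lay below those labelled Cre, as for 14.7% of all tested genes, with a log2 fold change of 0.19 (SE 0.12, 95% interval -0.06 to 0.45, limma adjusted p = 0.337). The libraries of a group were close to each other, since the pooled within-group SD of *Map2* on the log2 scale was 0.06, smaller than that of all but 1.85% of tested genes. Exons of *Gm10558*, a gene on the opposite strand with a mean of 547 normalized counts, share 124 bases with the exons of *Map2*, and reads there could not be assigned to a strand if the counting ignored it.

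*Mapt* (chromosome 11, 104229409 to 104332090), which encodes TAU, a protein of axonal microtubules, had 456, 475 and 611 normalized counts in the control libraries and 558, 739 and 654 in the libraries labelled Cre. The highest control library lay above the lowest library labelled Cre, and the log2 fold change was 0.34 (SE 0.16, 95% interval -0.002 to 0.68, limma adjusted p = 0.199). *Map1b* (chromosome 13, 99421464 to 99516602) encodes a protein that appears early in growing axons. It had 1384, 1653 and 1649.7 normalized counts in the control libraries, and 948, 1497 and 834 in replicates 2, 2_2 and 3 labelled Cre. Replicate 2_2 labelled Cre lay inside the control range while the other two lay below it. The log2 fold change was -0.56 (SE 0.19, 95% interval -0.98 to -0.13) with an adjusted p of 0.0947 (limma). Without replicate 2_2 labelled Cre the log2 fold change was -0.81 and the adjusted p 0.0178, and with replicates 2 and 2_2 labelled Cre averaged it was -0.62 and 0.036. *Map1b* was lower in the libraries labelled Cre under all 16 alternatives, and its adjusted p was under 0.05 in 2 of them.

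*Dcx* (chromosome X, 143855842 to 143933396) encodes doublecortin, which migrating young neurons use to stabilize microtubules. It had 10, 5 and 9 reads in the control libraries, and 6, 2 and 4 reads in the libraries labelled Cre. In normalized counts these were 9.18, 7.31 and 12 in control and 4.16, 1.72 and 3.58 in the libraries labelled Cre. The groups did not overlap (exact permutation test of 3 against 3, two-sided, p = 0.1, the smallest this design allows). Of all tested genes, which leave out *Dcx*, 15.5% had every library labelled Cre below control. With a mean of 6.33 the gene was under the filter. In the fit without a filter, where 5.23% of 27585 genes were called, its log2 fold change was -1.37 (SE 0.63). The limma p was 0.0431 unadjusted and 0.27 adjusted. *Dcx* was thus not called, and with at most 10 reads in a library the depth limits what can be said of it.

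*Tubb3* (chromosome 8, 123411553 to 123422015) encodes the beta tubulin of neurons. It had 26.6, 62.9 and 100.02 normalized counts in the control libraries (1, 1_1 and 2), against 24.2, 86.1 and 109 in replicates 2, 2_2 and 3 labelled Cre. The groups overlapped almost fully, with 1 low library in each, while the highest library exceeded the lowest 3.76-fold within control and 4.51-fold within the libraries labelled Cre. The pooled within-group SD was 1.05 on the log2 scale, larger than that of 99.2% of tested genes. The 95% interval of the log2 fold change ran from -1.07 to 1.37, which covers a change of 1 log2 unit in either direction. With 1 library left out the log2 fold change ran from -0.37 to 0.80. The low libraries, control replicate 1 and replicate 2 labelled Cre, were also the deepest of their groups, and the part of depth in this spread was not tested. Beta tubulin genes are alike in sequence, so reads that match several of them are uncertain.

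The stathmins differed from each other more than the groups did. *Stmn2* (chromosome 3, 8509527 to 8561604), a stathmin of growing neurites, was listed at 0 in all 6 libraries, 0 of 65366433 reads. This allows up to 3 reads in all for counting error alone, and no difference could be measured. *Stmn3* (chromosome 2, 181306459 to 181314500), its close relative, had 211, 289.6 and 295 normalized counts in the control libraries (1, 1_1 and 2), against 201, 331 and 358 in replicates 2, 2_2 and 3 labelled Cre. The lowest library of each group was again control replicate 1 and replicate 2 labelled Cre. The log2 fold change was 0.13 (SE 0.22, 95% interval -0.36 to 0.63, limma adjusted p = 0.762).

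Among the remaining members, *Dpysl3* (chromosome 18, 43320979 to 43438286) encodes a collapsin response mediator, a cytosolic protein that links guidance signals to the cytoskeleton. It had 2498, 2364 and 2683 normalized counts in the control libraries and 3278, 3315 and 2659 in the libraries labelled Cre, where replicate 3 lay inside the control range. The log2 fold change was 0.29 (SE 0.13, 95% interval 0.01 to 0.56), and the adjusted p was 0.174 (limma). *Ncam1* (chromosome 9, 49502129 to 49799393), the neural cell adhesion molecule, had 3486, 3653 and 3666 normalized counts in the control libraries and 2878, 3694 and 3219.8 in the libraries labelled Cre. The groups overlapped, and the log2 fold change was -0.15 (SE 0.12, 95% interval -0.42 to 0.12, limma adjusted p = 0.49). Exons of *Gm11149*, on the opposite strand, share 254 bases with those of *Ncam1*, and its mean was 27.6 normalized counts.

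**Figure D3:**
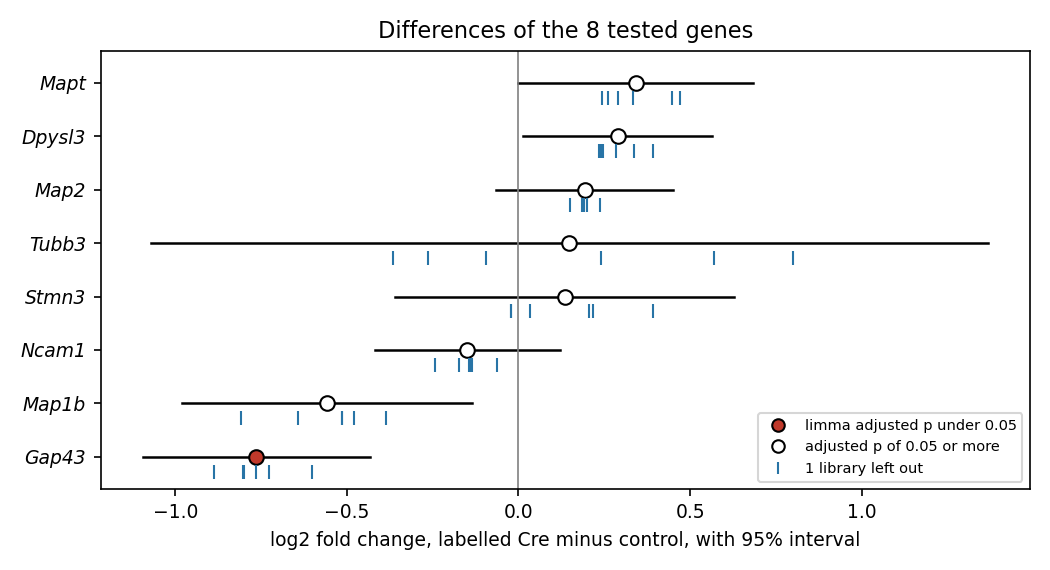
Log2 fold changes, labelled Cre minus control, of the 8 tested genes (circles) with their 95% intervals (black lines) from limma, and the values with 1 library left out (blue ticks). The intervals of *Gap43* and *Map1b* lie wholly below 0 and that of *Dpysl3* wholly above it, while only the circle of *Gap43*, with an adjusted p under 0.05, is filled, the interval of *Tubb3* is the widest of the 8, and the blue ticks of *Tubb3* and *Stmn3* fall on both sides of 0.

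Some of the genes varied together within the groups. After the mean of each group was subtracted, *Tubb3* and *Stmn3* had the highest Pearson correlation of the 28 pairs of tested genes (r = 0.97 over 6 libraries, given as a description, since some libraries may share a culture). *Gap43* also deviated with *Stmn3* (r = 0.93) and with *Tubb3* (r = 0.89), and *Map2* with *Map1b* (r = 0.92). At the other end *Gap43* and *Dpysl3* deviated in opposite directions (r = -0.53). *Tubb3* deviated by -1.03 in control replicate 1 and by -1.30 in replicate 2 labelled Cre, and *Stmn3* by -0.31 and -0.52 in the same libraries, all on the log2 scale. *Map2* deviated by no more than 0.09 in any library.

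**Figure D4:**
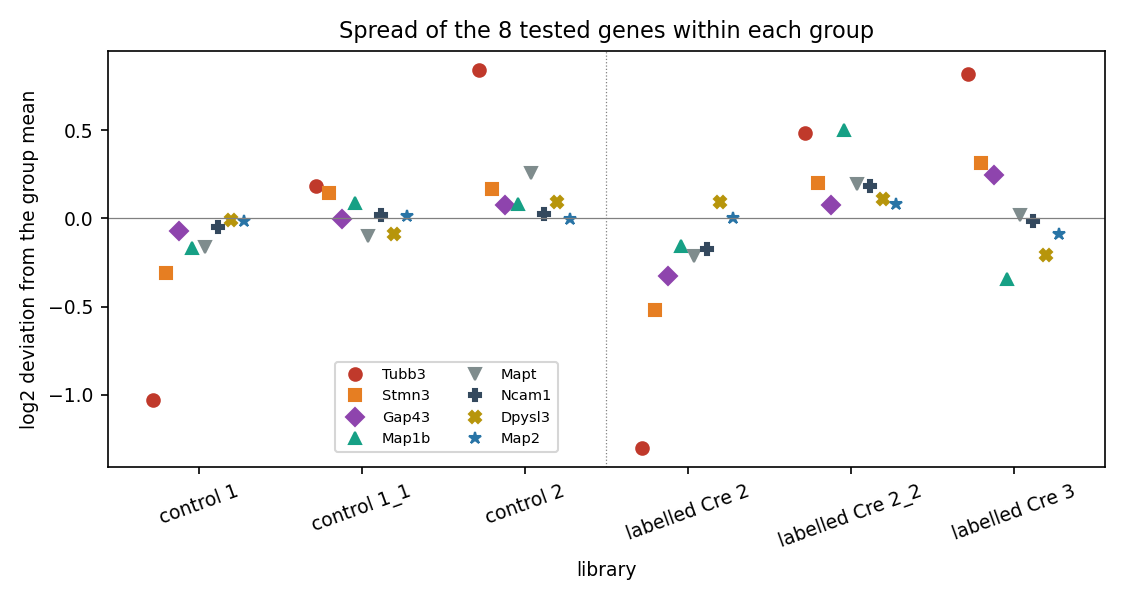
Deviation of each of the 8 tested genes from the mean of its group, on the log2 scale, in each of the 6 libraries, 1 symbol for each gene. *Tubb3* and *Stmn3* lie lowest in control replicate 1 and in replicate 2 labelled Cre, while *Map2* stays close to 0 in every library.

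Promoter sequences are shown for *Tubb3* and *Stmn3*, which deviated together, and for *Map1b*, whose adjusted p crossed 0.05 between alternatives. Each is the stretch of 250 bases before the first annotated start in RefSeq (GRCm38.p6), written 5′ to 3′ on the strand of the gene. The positions are chr8:123411303-123411552 (plus strand) for *Tubb3*, chr2:181314501-181314750 (minus strand) for *Stmn3* and chr13:99516603-99516852 (minus strand) for *Map1b*. Capitals mark matches on either strand to the E-box CANNTG, bound by proneural transcription factors, the TATA box TATAAA and the GC box GGGCGG.

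Tubb3: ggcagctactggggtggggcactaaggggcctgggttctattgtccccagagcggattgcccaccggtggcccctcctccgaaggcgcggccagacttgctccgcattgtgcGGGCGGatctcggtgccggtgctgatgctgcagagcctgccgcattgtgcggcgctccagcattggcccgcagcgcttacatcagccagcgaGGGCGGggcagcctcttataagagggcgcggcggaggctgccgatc
Stmn3: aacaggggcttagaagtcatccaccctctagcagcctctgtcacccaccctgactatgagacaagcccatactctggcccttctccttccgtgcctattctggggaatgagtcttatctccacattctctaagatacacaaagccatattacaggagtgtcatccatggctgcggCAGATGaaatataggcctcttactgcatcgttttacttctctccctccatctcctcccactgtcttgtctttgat
Map1b: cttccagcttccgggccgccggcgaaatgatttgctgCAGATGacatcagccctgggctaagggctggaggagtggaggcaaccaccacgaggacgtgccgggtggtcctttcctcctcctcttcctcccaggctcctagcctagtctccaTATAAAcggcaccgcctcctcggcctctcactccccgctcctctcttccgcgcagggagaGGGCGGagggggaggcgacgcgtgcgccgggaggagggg

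The *Tubb3* window held 2 GC boxes, beginning 138 and 46 bases before the start, and no match to the E-box. The *Stmn3* window held 1 E-box, beginning 75 bases before the start, and no GC box. The *Map1b* window held 1 E-box at 213, 1 TATA box at 99 and 1 GC box at 39 bases before the start. The nuclear receptor half-site AGGTCA, a motif of receptors that recruit NCOR, was not found in these 3 windows. Over all 32851 promoter windows of this length, 66.2% held the E-box, 32.7% the GC box, 12.4% the TATA box and 14% the half-site. *Tubb3* and *Stmn3* shared none of the motifs searched, and a match in letters is not a site of binding. Of the 10 genes, 5 had an entry in the promoter table, and for *Dcx* and *Map2* part of the window lay after an annotated start.

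Other genes of the same machinery were read from lists of 38 names, of which 34 passed the filter. The lists were chosen with earlier results of these data known. By limma, 4 of these were higher and 1 was lower in the libraries labelled Cre (14.7% called, beside 9.96% of all tested genes), with a median log2 fold change of 0.06. The count was 3 without any single one of the control libraries or without replicate 2_2 labelled Cre, and 9 without replicate 2 labelled Cre.

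Among the microtubule genes, 15 of 16 were tested. *Map6*, which encodes a protein that makes microtubules resistant to cold, was the one that limma called, and it fell from 195 ± 26.8 to 114 ± 25.6 normalized counts (SD, n = 3), a log2 fold change of -0.78 (limma adjusted p = 0.0341). It lost the call without any single control library (adjusted p from 0.0714 to 0.166), and without replicate 2_2 labelled Cre (0.112). This is 1 of 15 tested genes (6.67%), beside 5.22% of all tested genes called as lower. edgeR called 1 gene of the list and DESeq2 2, *Map6* and *Tuba1a*. The median log2 fold change of the list was -0.21. *Tuba1a*, an alpha tubulin of developing neurons, had 12039, 8969.9 and 11132 normalized counts in the control libraries and 8808, 7041 and 5354 in the libraries labelled Cre. Its groups did not overlap, with Cre labelled lower, as for 15.5% of all tested genes. The log2 fold change of *Tuba1a* was -0.62 (limma adjusted p = 0.0553). *Kif5c*, a kinesin motor, also had each library labelled Cre below control, with 15.1 ± 2.83 and 5.35 ± 5.61 (SD, n = 3, limma adjusted p = 0.157). This gene had at most 13 reads in any library. *Tubb2a*, another beta tubulin, had a log2 fold change of -0.01 (limma adjusted p = 0.982) and 2089 normalized counts per kb over all libraries, against 36.5 for *Tubb3*.

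Of the 12 other growth cone genes, 11 were tested and none was called by limma, edgeR or DESeq2 (0 each). Of all tested genes these called 9.96%, 9.99% and 11.8%, so 0 of 11 is close to this background. In limma 1 of the 11 had an unadjusted p under 0.05, beside 25.5% of all tested genes. *Marcks*, which like *Gap43* encodes a membrane-bound substrate of protein kinase C, had between 9258 and 11193 normalized counts in the control libraries and between 11091 and 15631 where Cre was labelled, a log2 fold change of 0.38 (limma adjusted p = 0.147). *Basp1*, which encodes another membrane-bound growth cone protein, had 0.26 (limma adjusted p = 0.408), with overlapping groups. *Fez1* had 684 ± 5.36 in control and 562 ± 79.7 with Cre labelled (SD, n = 3), without overlap, as for 15.5% of all tested genes. Its log2 fold change was -0.29 (limma adjusted p = 0.206). Of the 11, 6 had a positive and 5 a negative log2 fold change, and none passed the test in either direction.

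The neural cell adhesion genes, which act beside *Ncam1*, held 4 of the 5 called related genes. Of 10 listed, 8 were tested, and 4 of them were higher where Cre was labelled, with a median log2 fold change of 0.76. This is 50%, beside the 4.74% of all tested genes called as higher. The list was chosen with earlier results of these data known, so the 2 shares do not test it. *Chl1*, a close homolog of L1 that promotes neurite growth, rose from 384 ± 33.2 to 2534 ± 281 normalized counts (SD, n = 3), a log2 fold change of 2.72 (SE 0.13, limma adjusted p = 7.39e-07). It had 405, 401 and 345 normalized counts in the control libraries and 2312, 2439 and 2849.97 in the libraries labelled Cre, with no overlap. *Alcam*, an adhesion molecule of axons, rose from 25.3 ± 2.06 to 117 ± 18.4 (SD, n = 3), a log2 fold change of 2.16 (limma adjusted p = 0.000382). *Cntn1*, which encodes contactin on axons, rose from 274 ± 23.3 to 525 ± 42.3 (SD, n = 3), with 0.94 (limma adjusted p = 0.00198). *Ncam2*, the paralog of *Ncam1*, rose from 374 ± 31.9 to 558 ± 67.7 (SD, n = 3), with 0.58 (limma adjusted p = 0.0265). The count of the list was 3 or 4 under every alternative, and *Ncam2* lost the call without any single control library (adjusted p from 0.0709 to 0.141) or without replicate 2_2 labelled Cre (0.116). Whether the difference of *Ncam2* differs from that of *Ncam1* was not tested. Of the 4 tested genes that were not called, *Nfasc* had the largest log2 fold change, 1.26 (SE 0.52, limma adjusted p = 0.156). Its groups overlapped, with at most 54 reads in any library. *Nrcam* had a log2 fold change of 0.04 (limma adjusted p = 0.87). *St8sia4*, whose enzyme adds polysialic acid to NCAM1, had -0.08 (limma adjusted p = 0.889), and *L1cam* had at most 3 reads in any library.

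**Figure D5:**
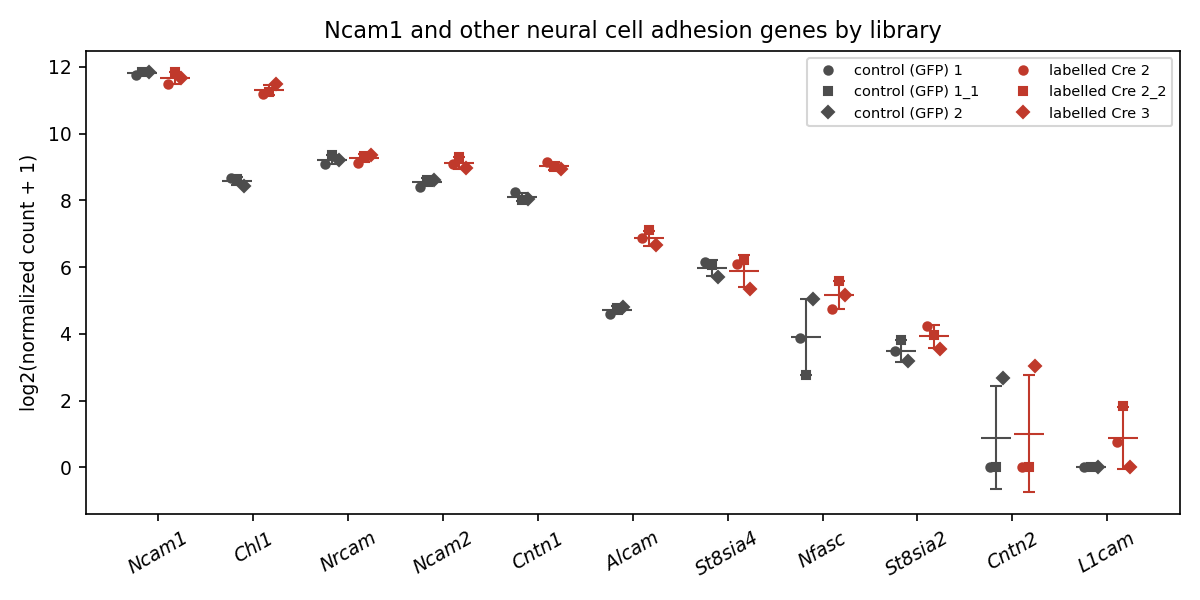
Log2(normalized count + 1) of *Ncam1* and 10 other neural cell adhesion genes in each library, with control in grey, labelled Cre in red, and bars for the mean and SD of 3 libraries. The groups of *Chl1*, *Alcam*, *Cntn1* and *Ncam2* do not overlap, while those of *Ncam1* and *Nrcam* do.

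Markers of cell types were read beside these values. Their lists, too, were chosen with earlier results of these data known, so the shares called do not test them. Of 12 further neuron markers, 8 were tested and limma, edgeR and DESeq2 called none (0 each), with 2 at an unadjusted p under 0.05 (limma), beside 25.5% of all tested genes. Of the 8, 7 had a negative log2 fold change, with a median of -0.33. *Elavl3*, *Eno2* and *Snap25* had every library labelled Cre below every control library, as for 15.5% of all tested genes. The summed level of the 12 was 381 to 512 normalized counts in control and 312 to 416 in the libraries labelled Cre, and *Nefh* and *Slc17a6* were listed at 0 in all libraries. Of 8 markers of neuroblasts and intermediate progenitors 3 were tested. Of these limma called 1, *Dlx1*, which was lower (adjusted p = 0.00133), beside 5.22% of all tested genes called as lower. *Sox11* had a log2 fold change of -0.37 (limma adjusted p = 0.0828) and *Sox4* 0.47 (limma adjusted p = 0.0667). Among the untested genes, *Eomes* averaged 0.488 normalized counts in control and 10.6 with Cre labelled, and *Dlx2* 8.996 and 0.231. These genes had at most 14 reads in any library. The list thus did not move in 1 direction. The summed level of the list, mostly *Sox11* and *Sox4*, was 18022.5 to 19830.0 in control and 19151 to 21409 in the libraries labelled Cre, and *Neurod6* was at 0. Of 7 tested astrocyte markers 4 were higher, beside 4.74% of all tested genes. *Aldh1l1* had lower values, 17.3 ± 2.34 in control and 5.35 ± 3.30 (SD, n = 3) with Cre labelled, without overlap (log2 fold change -1.65, limma adjusted p = 0.065). The astrocyte markers had summed levels of 6897 to 8067 in control and 12942 to 16505 in the libraries labelled Cre, the largest share from *Sox9* (4272 ± 444 and 8657 ± 1379), and *Gfap* had at most 12 reads. Of 6 tested markers of the oligodendrocyte lineage 3 were higher, beside 4.74% of all tested genes, with summed levels of 12488 to 14404 and 17236 to 19638.5. Of 10 NSC markers limma called 1, *Nes*, which was lower (adjusted p = 0.00384), beside 5.22% of all tested genes called as lower. Of the 10, 6 had a positive and 4 a negative log2 fold change, with a median of 0.13. The summed levels of the NSC markers were 33831 to 37734 in control and 33561 to 35321.5 in the libraries labelled Cre. The part of these markers in the differences of *Gap43* and of the adhesion genes was not tested. Markers of microglia summed to 162 to 205 in control and 166 to 273 in the libraries labelled Cre, nearly all from *Csf1r*, with *Aif1* at no more than 1 read. Markers of endothelial cells and fibroblasts summed to at most 10.7 normalized counts in any library, with *Cdh5* and *Pdgfrb* at 0.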

How the data were processed

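RNA-seq values of 6 libraries were analyzed, grouped by the sample titles. The paper names TopHat with mm9 and mm10, and the submitters' processing notes name STAR 2.7 and mm10. The read counter, its strand setting and its annotation are not given in the sources used here. The authors deposited normalized counts, a signal in which reads per gene are scaled by 1 size factor for each library, with their mean. The deposited columns of the authors' own comparison, log2 fold changes with standard errors, a test score, p-values and adjusted p-values, were not used.

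The value of 1 read was found from the lowest values of each library, and 100% of the values came out whole to within 0.01 of a read. Of 53379 genes, 873 had no name and 1 lacked a value and was left out. Tests used limma 3.58.1 in R 4.3.3 (lmFit, eBayes, trend) on log2(normalized count + 1), which understates changes of low genes, for the 14840 genes with a mean of at least 10, with Benjamini-Hochberg adjustment and a threshold of 0.05. Alternatives were edgeR 4.0.16 (quasi-likelihood) and DESeq2 1.42.0 with the recovered reads as counts, a pseudocount of 0.5 or of 5, no filter, a mean of at least 50, TMM and total count scaling, averaged like-numbered libraries, and leaving out each library. The scripts were tested on simulated data. Exon lengths are from GENCODE M1 (mm9), matched by gene ID. Coordinates and promoters are from RefSeq (GRCm38.p6), matched by symbol.

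The members and lists were chosen with earlier results of these data known. Named genes were the 10 members, the called genes of each related list or else its 2 genes with the highest mean, and genes most like *Tubb3* and *Gap43* by Pearson's r. *Tbl1xr1* was named as the targeted gene. *Tuba1a*, *Tubb2a*, *Kif5c*, *Fez1*, *Nfasc*, *Nrcam*, *St8sia4*, *L1cam* and the markers outside this rule were named after their values were seen. The 95% intervals are those of limma and rest on the spread between libraries, while floors in reads cover counting error only. Figures were drawn with matplotlib 3.10.9.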

Additional observations from a re-analysis of the deposited data

How the results depend on the processing

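*Gap43* kept its direction under all 16 alternatives, with a log2 fold change from -0.89 to -0.60 and an adjusted p from 0.000221 to 0.0572, above 0.05 only without control replicate 2. *Map2*, *Mapt*, *Dpysl3* and *Ncam1* kept their direction and stayed above the threshold under all 16. *Map1b* ranged from -0.81 to -0.39 and passed with the libraries 2 and 2_2 labelled Cre averaged (-0.62, adjusted p = 0.036) and without replicate 2_2 labelled Cre. *Tubb3* changed sign after control libraries 1 and 1_1 were averaged (-0.13). With 1 library left out it ran from -0.37 to 0.80. *Stmn3* ran from -0.023 to 0.39 with 1 library left out. The number of called members was 1, was 2 with the libraries 2 and 2_2 labelled Cre averaged, and ran from 0 to 2 with 1 library left out. The number of all called genes, 1478, was 660 after control libraries 1 and 1_1 were averaged, and ran from 558 to 2396 with 1 library left out. The number of called related genes, 5, was 3 after the same averaging, and ran from 3 to 9 with 1 library left out. *Chl1*, *Alcam* and *Cntn1* passed under all 16 alternatives. *Map6* and *Ncam2* also lost their calls after control libraries 1 and 1_1 were averaged, at adjusted p-values of 0.0942 and 0.0886, and *Map6* with the libraries 2 and 2_2 labelled Cre averaged (0.0583). The causes were not tested. No scaling moved the median log2 fold change of all tested genes by over 0.1. *Dcx* and *Stmn2* were under the filter, so depth limits what can be said of them. No paired analysis was possible because the groups share only 1 replicate number, and no label ties it to a culture.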

Other observations

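Among the 11104 genes with a mean of at least 50 normalized counts that are not of the list, the genes most like *Tubb3* over the 6 libraries were *Cnksr3* (Pearson r = 0.988), *Ncor1* (r = 0.984) and *Rpl39-ps* (r = 0.981). *Ncor1*, which encodes a corepressor that binds TBL1XR1, had 3787, 4168 and 4281 normalized counts in the control libraries (1, 1_1 and 2), against 3837, 4331 and 4343 in replicates 2, 2_2 and 3 labelled Cre. Its lowest libraries were those in which *Tubb3* was lowest, over a narrow range. *Rpl39-ps* is a pseudogene, whose reads are uncertain. The genes most like *Gap43* were *Ubqln4*, *Tagln2* and *Eif3d* (r = 0.997, 0.995 and 0.995). Unlike the r between pairs of tested genes, these r are of log2 levels without the group means subtracted. A difference between the groups therefore enters them. *Tagln2*, an actin-binding protein, had 9714, 10583 and 10109 normalized counts in the control libraries and 4360.3, 5988 and 6751 in the libraries labelled Cre. These correlations are the highest of many candidates over 6 libraries that may share cultures, and are given as descriptions.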
